A study of Mus musculus with 2 samples.

Results

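Malat1, Neat1 and Kcnq1ot1 are 3 long noncoding RNAs that stay in the nucleus, and they were followed here through single-cell RNA-seq of wild-type and Lin28a knockout mouse embryonic stem (ES) cells. They were taken by Ensembl identifier from the 54146 gene rows of the count tables, of which 37262 held at least 1 UMI (unique molecular identifier, 1 counted RNA molecule), and all 3 were detected in both libraries. Each genotype was 1 inDrop library, a droplet method that primes RNA at poly(A). Both genotypes were ES cells derived from the inner cell mass, grown for 2 days in LIF/2i medium on gelatin with mouse embryonic fibroblast (MEF) feeder cells. The wild-type cells carry the label untreated, although the supplement describes their clone as transfected wild-type, and the Lin28a knockout had been made with CRISPR/Cas9 directed at the second exon of the gene. The methods name a single clone for each genotype, so a difference between the libraries cannot be told apart from a difference between clones, cultures or library preparations. With 1 library per group there was no replicate error and no test was run. Intervals given with ratios below are 95% exact intervals that cover counting error only.

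Malat1 is an abundant RNA of nuclear speckles, the bodies where splicing factors gather. Neat1 is the scaffold of paraspeckles, nuclear bodies built from its long form together with RNA-binding proteins such as Sfpq and Nono. Kcnq1ot1 is transcribed from the paternal copy of an imprinted domain, antisense to Kcnq1, and silences neighbouring genes in cis. Because such RNAs remain in the nucleus while ribosomal protein mRNAs are cytoplasmic, their share among the RNAs of a droplet is widely read as a sign of nuclear RNA.

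The 3 genes lie on the minus strand of GRCm38, the assembly also called mm10. Malat1 (ENSMUSG00000092341.2, a lincRNA) spans chr19:5795690-5802672 in 1 exon. Neat1 (ENSMUSG00000092274.2, a lincRNA) spans chr19:5824708-5845478, with a 1-exon long form of 20771 bases and a 2-exon short form of 3004 bases. Kcnq1ot1 (ENSMUSG00000101609.2, annotated as antisense) spans chr7:143203458-143296549 as 1 exon of 93092 bases. How each RNA ends decides where a poly(T) primer can bind, so the ends and A-rich stretches are shown from the GENCODE M21 transcripts. As background, Malat1 and long Neat1 end in an encoded A-rich tract that forms a triple helix with U-rich stretches and is freed by RNase P, while short Neat1 is polyadenylated. In the first pair of sequences, capitals mark a U-rich motif (TTTTGCTTTT) and the A-rich motif (AAAAAGCAAAA), bases 6636 to 6711 of the 6983 bases of Malat1 (chr19:5795962-5796037) and bases 20709 to 20771 of long Neat1 (chr19:5824708-5824770).
Malat1, A-rich tract: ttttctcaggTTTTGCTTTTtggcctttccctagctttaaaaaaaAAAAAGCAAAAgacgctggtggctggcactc
Neat1, long form end: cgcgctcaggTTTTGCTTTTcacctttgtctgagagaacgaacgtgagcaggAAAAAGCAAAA
Of 141767 annotated transcripts, 4 (0.00282%) held this U-rich motif followed within 100 bases by the A-rich motif. They belong to 3 genes, which are Malat1, Neat1 and Retreg3, and the pair read on the opposite strand occurred in 1 transcript. The motifs searched were those printed above for Malat1 and long Neat1, so these 2 genes were bound to be among the 3. The A-rich motif alone occurred in 618 transcripts (0.436%). In the next 3 sequences, the last 60 bases of short Neat1 (chr19:5842307-5842366), Malat1 (chr19:5795690-5795749) and Kcnq1ot1 (chr7:143203458-143203517), capitals mark the polyadenylation hexamer AATAAA, which 27.1% of transcripts carried in their last 60 bases.
Neat1, short form end: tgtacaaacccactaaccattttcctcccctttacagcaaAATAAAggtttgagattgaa
Malat1, annotated end: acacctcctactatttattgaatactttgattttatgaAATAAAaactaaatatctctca
Kcnq1ot1, annotated end: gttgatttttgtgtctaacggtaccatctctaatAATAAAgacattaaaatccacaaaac
The longest run of A inside each RNA was 12 bases in Malat1, where it forms part of the tract above, and 41 bases in Kcnq1ot1, while neither Neat1 form held a run of 10 or more. Kcnq1ot1 held 10 such runs, and 7.18% of all transcripts held at least 1. The run of 41 is shown in capitals within bases 69550 to 69620 of Kcnq1ot1 (chr7:143226930-143227000).
Kcnq1ot1, longest A-run: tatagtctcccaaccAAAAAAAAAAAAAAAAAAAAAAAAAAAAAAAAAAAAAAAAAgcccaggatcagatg
Which of these sites primed the counted molecules was not tested, because the counts carry no positions.

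The count tables summed to 12079546 UMIs for 4329 wild-type barcodes and 10027710 UMIs for 6060 knockout barcodes, of which 4295 and 5945 had at least 50 UMIs. Cells were barcodes with at least 500 UMIs and at most 20% mitochondrial UMIs, 1856 wild-type (median 6140 UMIs) and 1622 knockout (median 5063.5). Lin28a itself was at 107 CPM (UMIs per 1000000 UMIs of the same cells) in wild-type cells and 36.6 CPM in knockout cells, a ratio of 0.343 (0.304 to 0.387), so its transcript was reduced and not absent. RP share is the percentage of a barcode's UMIs on 87 cytosolic ribosomal protein genes. It fell under 5% in 91 wild-type and 233 knockout cells, which were shallow (median 830 and 1214 UMIs), and reached 15% in 226 and 355 cells. The culture also held 31 wild-type and 16 knockout cells with at least 1% of UMIs on collagens I and III, called collagen-rich below. Their summed fibroblast markers (14 genes) stood at 42673 CPM against 838 CPM in the other wild-type cells, and at 36883 against 789 CPM in the knockout library. Their summed ES cell markers (10 genes) stood at 758 against 4695 CPM and 564 against 4782 CPM, and 2 and 5 of the 10 had no UMI there. Barcodes carry only running numbers in each library, so barcodes shared by the libraries could not be counted.

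Across all cells, Malat1 and Neat1 were lower and Kcnq1ot1 higher in the knockout library. Malat1 had 16940 UMIs (1814 CPM) against 53078 (4560.3 CPM), a ratio of 0.398 (0.391 to 0.405). Kcnq1ot1 had 4612 UMIs (494 CPM) against 4490 (386 CPM), a ratio of 1.28 (1.23 to 1.33). Neat1 had 448 UMIs (48.0 CPM) against 670 (57.6 CPM), a ratio of 0.833 (0.738 to 0.94). Of the 9835 genes with at least 200 UMIs, 69 had a lower ratio than Malat1 and 1707 a higher one than Kcnq1ot1, around a median of 1.01. Malat1 alone passed 1.5-fold, downward, as did 8.45% of all genes, and no member passed 1.5-fold upward, as did 6.49%. Scaled by the median ratio of 11862 genes, which was 1.04, in place of total UMIs, Malat1 was at 0.384.

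The lower Malat1 of the knockout library was found at each depth and in each RP class. Its ratio was under 1, with the whole interval, in 8 of 8 depth classes (0.323 to 0.805), 5 of 5 RP classes (0.286 to 0.501) and 6 of 6 mitochondrial classes (0.0998 to 0.689). The lowest of these, over 20% mitochondrial UMIs, had only 1 wild-type barcode. When depth and RP share were crossed, the Malat1 ratio was under 1 in 18 of 19 classes, in 16 with the whole interval. In single cells of at least 5000 UMIs, the median Malat1 share was 0.337% of UMIs in 1234 wild-type cells and 0.0981% in 821 knockout cells, and 4 and 35 of them had no Malat1 UMI. Thinned to 500 UMIs per cell, 76.0% of wild-type and 49.7% of knockout cells would show a Malat1 UMI, where 98.4% and 86.8% did unthinned. Thinned shares of Neat1 were 3.09% and 3.78% (21.4% and 19.6% unthinned), and those of Kcnq1ot1 17.0% and 23.1% (72.8% and 69.5% unthinned). No cell type that lacks these RNAs was among the cells, so the part of free RNA in these shares was not measured.

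Kcnq1ot1 was higher in the knockout library in 5 of 5 RP classes (1.32 to 3.81, each interval above 1) and in 7 of 8 depth classes, 6 of them with the interval above 1. The exception was the class of 50 to 100 UMIs, at 0.875 (0.505 to 1.56) from 41 and 21 UMIs. Within mitochondrial classes the ratio of Kcnq1ot1 was 0.973 (0.871 to 1.09) under 1%, 1.07 at 1 to 2%, 1.14 (1.07 to 1.22) at 2 to 5%, 1.33 (0.977 to 1.84) at 5 to 10% and 1.43 (0.588 to 4.51) at 10 to 20% mitochondrial UMIs, and 2 of 6 intervals lay above 1. Neat1 had no single direction. Its ratio was 2.06 (1.14 to 4.02) among barcodes of 1000 to 2000 UMIs, 0.666 (0.535 to 0.823) at 5000 to 10000 UMIs and 0.472 (0.377 to 0.589) at 10000 UMIs and more. Without the collagen-rich cells, which held 22.1% of wild-type and 9.15% of knockout Neat1 UMIs, its ratio was 0.952 (0.834 to 1.09), and the interval then included 1. Malat1 without them was at 0.435 (0.427 to 0.443), and within the collagen-rich cells alone, whose markers are not those of ES cells, at 0.397 (0.366 to 0.430). The 2 collagen-rich groups were unlike, with median depths of 9310 (wild-type) and 2105.5 UMIs (knockout). RP genes held 8.63% and 12.4% of their summed UMIs, while the median RP share of single cells was 7.42% and 4.58%. Of the 31 and 16 cells, 5 and 8 were under 5% RP.

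**Figure D1:**
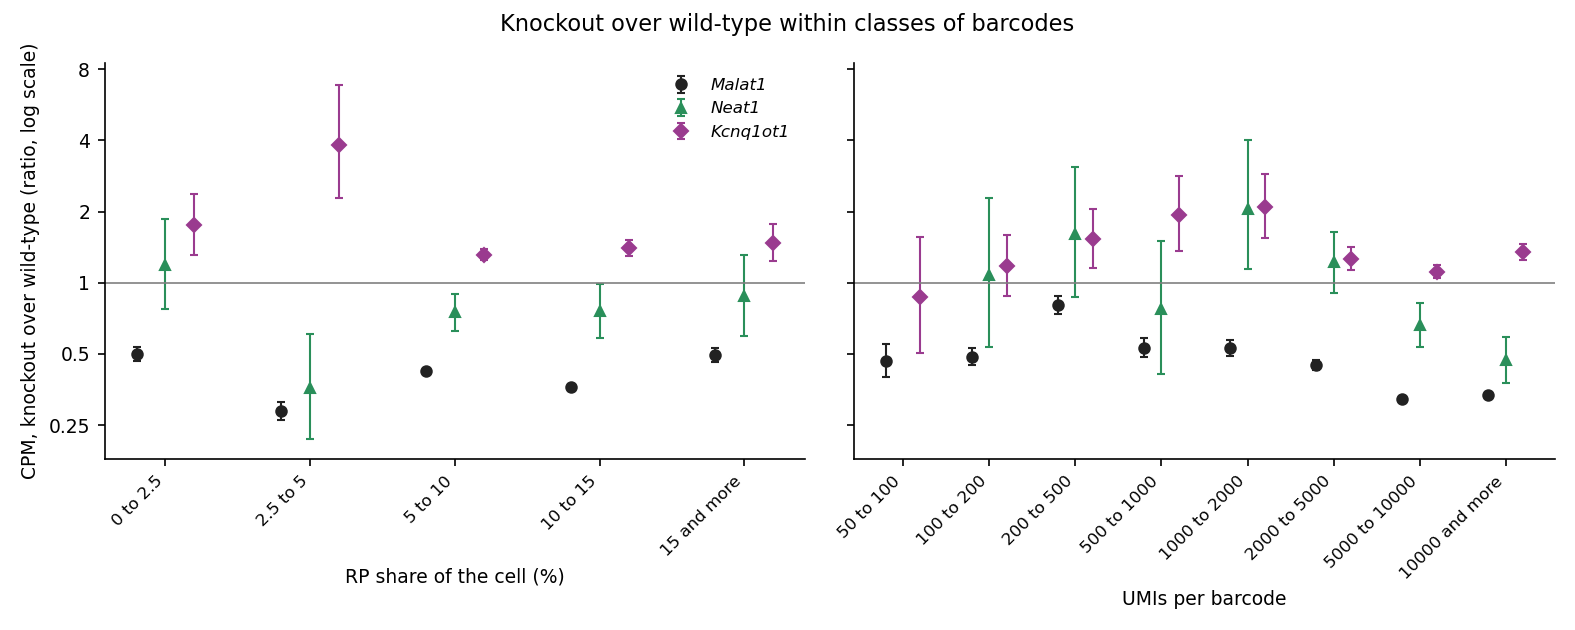
Ratio of CPM (log scale), knockout over wild-type, of Malat1 (circles), Neat1 (triangles) and Kcnq1ot1 (diamonds) by RP share of cells (left) and by UMIs per barcode (right), with 95% exact counting intervals; 1 library per genotype, and a class is left out where either library had under 3 UMIs. Malat1 lies under 1 in all 8 depth classes (0.323 to 0.805) and Kcnq1ot1 above 1 in 7 of them, while Neat1 lies on both sides.

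All 3 RNAs were at their lowest in cells of at least 15% RP and, summed under 5% RP, above the other cells of their library. From the lowest RP class (under 2.5%) through 2.5 to 5%, 5 to 10%, 10 to 15% and at least 15%, Malat1 stood in wild-type cells at 30172, 22101, 5662, 3589.9 and 1320.2 CPM. In knockout cells it stood at 15122, 6328, 2404, 1298 and 654 CPM. Each step was downward in both libraries, with no overlap of the counting intervals. Neat1 ran from 554 and 659 CPM in the classes under 5% to 67.9, 37.9 and 30.5 CPM in wild-type cells, and from 661 and 237 to 50.9, 28.9 and 26.9 CPM in knockout cells. Of the 91 wild-type cells under 5% RP, 71 had no Neat1 UMI, and 1 barcode held 15 of the 58 Neat1 UMIs. The intervals of the upper 2 RP classes of Neat1 overlapped in each library, as did those of the lower 2 in wild-type cells. Kcnq1ot1 stood at 1026, 412, 499.9, 311 and 106 CPM in wild-type cells and at 1804, 1568, 658, 436 and 157 CPM in knockout cells. Its order was broken once, in the wild-type class of 2.5 to 5%, which held 38 cells.

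**Figure D2:**
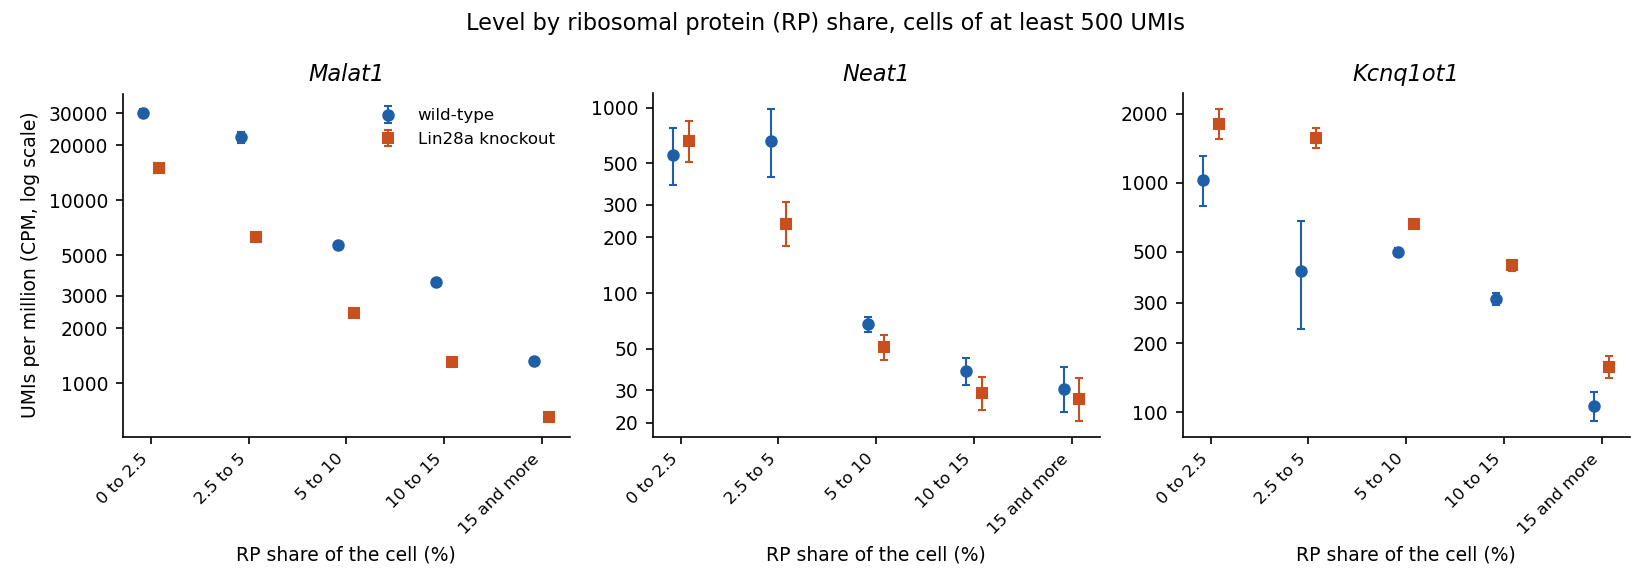
CPM (log scale) of Malat1, Neat1 and Kcnq1ot1 by RP share of the cell in the wild-type (circles) and Lin28a knockout (squares) library, with 95% exact Poisson intervals; each point sums the UMIs of 1 class of cells, from 38 to 932 cells. Malat1 falls from 30172 to 1320.2 CPM in the wild-type library and from 15122 to 654 CPM in the knockout library.

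Cells under 5% RP were set against the other cells of the same library. The 5% limit came from earlier results of these data, where it divided off a shallow group rich in lincRNAs. Higher levels of such RNAs under it were thus in part built into the choice. Malat1 was 6.22-fold higher (5.98 to 6.47; 27166 against 4369 CPM) in wild-type cells and 5.71-fold higher (5.49 to 5.94; 8888 against 1556 CPM) in knockout cells. These values pool the UMIs of all cells. The median Malat1 share of single cells under 5% RP was 1.22% (wild-type) and 0.529% (knockout). At 5 to 10% RP it was 0.439% and 0.178%. Neat1 was 11.2-fold (8.39 to 14.7; 593 against 53.0 CPM) and 9.84-fold higher (7.91 to 12.2; 360.3 against 36.6 CPM). Without the barcode under 5% RP that held most Neat1 UMIs it was 8.49-fold (6.08 to 11.6) and 8.90-fold higher (7.08 to 11.1). Kcnq1ot1 was 2.09-fold (1.65 to 2.61; 798 against 382 CPM) and 3.62-fold higher (3.30 to 3.96; 1637 against 452 CPM). All 3 passed 2-fold upward in both libraries, as did 17.9% of 7469 wild-type and 20.4% of 6720 knockout genes. Neat1 was among the genes with the highest ratios, with 9 and 10 genes above it. The interval of the Kcnq1ot1 ratio in the wild-type library lay wholly under that in the knockout library, and those of Neat1 overlapped. RP genes take part of the same UMIs, so a low RP share raises all other shares, and with RP and mitochondrial UMIs left out of the total the Malat1 ratios were 5.89 and 5.43. With the limit at 10% RP in place of 5%, the ratios were 2.11 and 2.83 for Malat1, 2.14 and 2.78 for Neat1, and 2.26 for Kcnq1ot1 in the knockout library. The wild-type Kcnq1ot1 ratio was at the 2-fold limit, and under it with RP and mitochondrial UMIs left out (1.97), without the barcode that held most of its UMIs (1.99) and over all barcodes of at least 50 UMIs (1.55). Over all those barcodes the wild-type ratios of Malat1 and Neat1 were 3.13 and 5.58, and the knockout ratios 4.41 and 7.94.

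Counted per barcode, Malat1 molecules were not in the order of the CPM. Cells under 5% RP held a mean of 29.2 Malat1 UMIs (wild-type) and 12.5 (knockout), cells of 5 to 10% RP 37.9 and 18.4, and cells of 10 to 15% RP 21.0 and 7.63. A few cells carried the first mean. The 5 collagen-rich wild-type cells under 5% RP held 1087 of their 2657 Malat1 UMIs, and the mean of the other 86 was 18.3. Medians were 12 UMIs in wild-type and 7 in knockout cells under 5% RP, against 22 and 6 at 5 to 15% RP, where cells were several times deeper (median 6158 and 6306 UMIs). Cells of at least 15% RP had means of 10.2 and 3.97 Malat1 UMIs at median depths of 7331 and 5852 UMIs. Against cells of 5 to 15% RP, those cells were at 0.269 (0.258 to 0.280) and 0.355 (0.336 to 0.376) of the CPM for Malat1. Kcnq1ot1 was at 0.247 (0.212 to 0.286) and 0.289 (0.257 to 0.323), and Neat1 at 0.534 (0.395 to 0.709) and 0.678 (0.502 to 0.904). Malat1 and Kcnq1ot1 thus passed 2-fold downward in both libraries and Neat1 in neither, beside 31.1% of 7433 wild-type and 29.6% of 6519 knockout genes. These cells were also poor in mitochondrial RNA, with medians of 0.18% and 0.266% of UMIs.

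Within 1 depth class, the order of Malat1 by RP share remained. In wild-type cells of 5000 to 10000 UMIs, Malat1 was at 5372 CPM in cells of 5 to 10% RP, 3399.9 CPM at 10 to 15% and 1141 CPM at 15% and more. The same classes gave 2212, 1249 and 645 CPM in the knockout library. The highest value, 75296 CPM, came from 5 wild-type cells under 5% RP with 2000 to 5000 UMIs, where 1 barcode held 349 of 1086 Malat1 UMIs. The order of Malat1 was broken in 2 places, both in the knockout library. Cells of 500 to 1000 UMIs were at 1011 CPM for 10 to 15% RP and 1233 CPM for 15% and more, and 1 cell under 5% RP with over 5000 UMIs held 4 Malat1 UMIs.

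Over single cells the same relation was seen within each of 4 depth classes from 1000 UMIs upward. Spearman's rho of Malat1 share with RP share lay between -0.76 and -0.53 in wild-type cells (67 to 1042 cells a class) and between -0.67 and -0.48 in knockout cells (201 to 507 cells). Both shares are of the same UMIs, and the cells of a class share 1 library, so these values describe and do not test. With Kcnq1ot1 share, rho of Malat1 was 0.29 to 0.43 and 0.41 to 0.57, and with Neat1 share, which was 0 in most cells, 0.17 to 0.31 and 0.11 to 0.33. The barcodes with at least 5% of UMIs on Malat1 were 8 (wild-type) and 6 (knockout). Of the 8, 7 were under 5% RP, 4 were collagen-rich and 1 was over the mitochondrial limit, and the 6 were all under 5% RP with 2 collagen-rich. Their highest Malat1 shares were 14.6% (wild-type) and 10.03% (knockout).

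**Figure D3:**
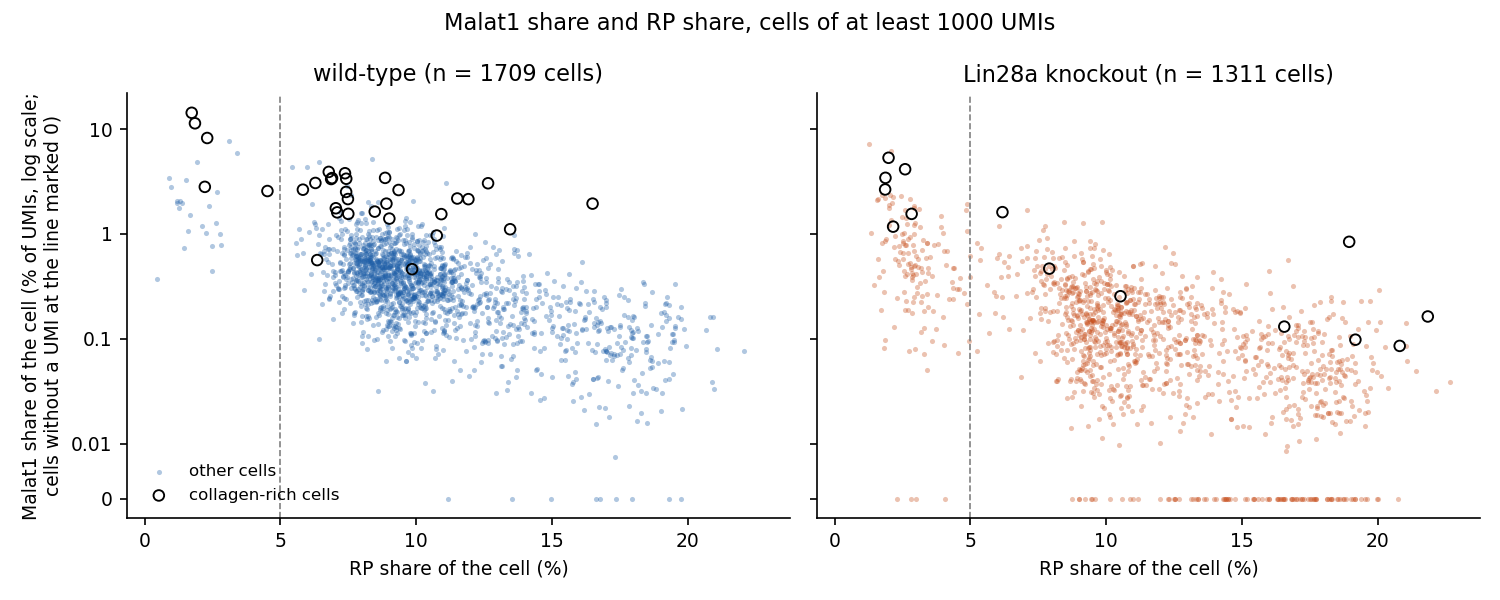
Malat1 share of each cell's UMIs (%, log scale, cells without a UMI drawn at the line marked 0) against its RP share (%), for cells of at least 1000 UMIs in the wild-type (1709 cells) and knockout (1311 cells) library; open circles are collagen-rich cells and the dashed line is 5% RP. Malat1 share declines with RP share in both libraries, 9 wild-type and 100 knockout cells lie at 0, and most wild-type collagen-rich cells lie above the others at their RP share.

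Cells with more Malat1 also had more of the other 2 RNAs. Cells were divided by Malat1 share into 3 equal parts within each library and 4 depth classes, with Malat1 UMIs left out of the totals. In all 8 comparisons of the highest with the lowest part, Neat1 was 1.85 to 8.92 times and Kcnq1ot1 2.00 to 5.09 times higher, each with its interval above 1. Collagen-rich cells moved with the division, with 14 in the highest and 0 in the lowest part of wild-type cells of 5000 to 10000 UMIs, and the same numbers at 10000 UMIs and more. Without them, Neat1 was 1.87 to 6.72 times and Kcnq1ot1 1.97 to 5.43 times higher, again with each interval above 1, and Neat1 in the deepest wild-type cells was at 4.17 (2.48 to 7.34) in place of 7.55 (4.65 to 12.9). RP share also moved with Malat1 share. In wild-type cells of 5000 to 10000 UMIs it was 13.6% in the lowest and 9.0% in the highest part, and mitochondrial share was 0.847% and 1.73%. Abundant cytoplasmic mRNAs were at 4.69% and 4.45% there, while in wild-type cells of 500 to 2000 UMIs they were at 4.24% in the lowest and 1.88% in the highest part. In the deeper knockout cells they were no lower with more Malat1, at 4.73% and 4.77% in cells of 5000 to 10000 UMIs and 4.79% and 4.80% above.

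The lists of other RNAs placed beside the members were read as counts past 2-fold, with 0.5 added to each count, against the median of all genes in the same comparison, 0.812 (wild-type) and 0.806 (knockout). In cells under 5% RP, 11 of 12 other nuclear long noncoding RNAs passed 2-fold upward in the wild-type (median 3.54) and 10 of 11 in the knockout library (median 3.87), beside 17.9% and 20.4% of all genes. The 5% limit was itself chosen with lincRNAs known to be high under it. Tsix, the antisense partner of Xist, was at 6.16 and 6.88, and Meg3, a maternally expressed RNA of the Dlk1 domain, at 2.95 and 3.66. Nespas, an imprinted antisense RNA, was at 12.1 in the knockout library from 29 and 66 UMIs. The exception was Tug1, with 1 and 6 UMIs in the cells under 5% RP. Downward, 32.4% of all wild-type and 30.5% of all knockout genes passed 2-fold. Of 20 abundant cytoplasmic mRNAs, 16 and 15 passed 2-fold downward and none upward (medians 0.35 and 0.321), among them Gapdh, a glycolytic enzyme, at 0.185 and 0.173, and Eef1a1, an elongation factor, at 0.307 and 0.215.

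The mRNAs of proteins of paraspeckles and nuclear speckles did not share one direction. Of 15 paraspeckle protein mRNAs, 1 passed 2-fold upward and 1 downward in the wild-type library (median 0.904), and 2 and 2 in the knockout library (median 0.967). Sfpq, needed to hold Neat1 in paraspeckles, was at 0.756 and 1.01. Of 18 nuclear speckle protein mRNAs, 3 were higher and 6 lower in the wild-type (median 0.928), and 8 higher and 4 lower in the knockout library (median 1.76). Of all genes, 17.9% passed upward and 32.4% downward in the wild-type library, near the speckle counts and above the paraspeckle counts, and 20.4% and 30.5% in the knockout library. Son, a large scaffold protein of speckles, was at 2.74 and 3.92, Clk1, a kinase of splicing factors, at 2.13 and 3.78, and Srsf7, a splicing factor, at 0.164 and 0.305.

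**Figure D4:**
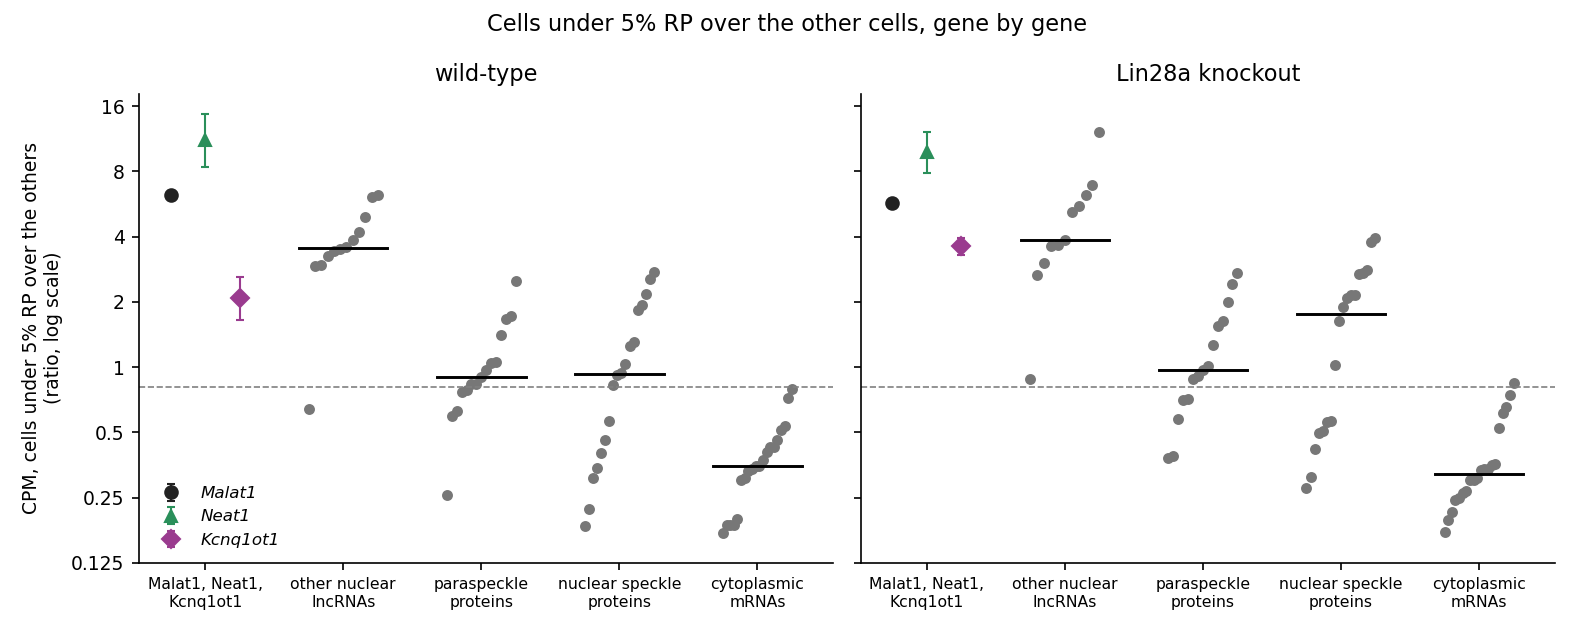
Ratio of CPM (log scale) of cells under 5% RP over the other cells of the wild-type (left) and knockout (right) library, for the 3 RNAs with 95% exact counting intervals and for each gene of 4 lists with at least 50 UMIs (grey, 0.5 added to each count; bars are list medians, the dashed line the median of all genes, 0.812 and 0.806). The medians of the other nuclear long noncoding RNAs lie above the dashed line (3.54 and 3.87), and those of the cytoplasmic mRNAs under it (0.35 and 0.321).

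Cells of another type moved with the same comparison. In wild-type cells under 5% RP, 12 of 14 fibroblast markers passed 2-fold upward, with a summed level of 11768 against 1903 CPM. In the knockout library 4 of 12 did, at 2525 against 1017 CPM. Of 10 ES cell markers, 7 and 5 passed 2-fold downward, with sums of 1830.2 against 4610.1 and 2614 against 4827 CPM. Of all genes, 17.9% and 20.4% passed upward and 32.4% and 30.5% downward, and the knockout counts were nearer to these shares than the wild-type counts. Collagen-rich cells made up 5 of the 91 and 8 of the 233 cells. With them left out, the cells under 5% RP were still 5.04-fold (4.79 to 5.30) and 5.29-fold (5.07 to 5.52) higher in Malat1, and Neat1 was 8.34-fold higher (5.53 to 12.1) in the wild-type library.

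Collagen-rich cells differed from the rest in all 3 RNAs. Malat1 was 5.70-fold (5.56 to 5.85; 23039 against 4039 CPM) and 5.21-fold higher (4.81 to 5.63; 9142 against 1756 CPM) in them, and Neat1 10.1-fold (8.32 to 12.1) and 12.8-fold higher (9.07 to 17.7). Kcnq1ot1 was lower, at 0.602 (0.473 to 0.757; 235 against 390.0 CPM) and 0.416 (0.232 to 0.686; 206 against 496 CPM). Malat1 and Neat1 thus passed 2-fold upward in both libraries and Kcnq1ot1 in neither, beside 13.2% of wild-type and 12.2% of knockout genes. The median gene was also lower in collagen-rich cells, at 0.754 and 0.787. A lower ratio than that of Kcnq1ot1 was found for 2944 of 7469 wild-type and 1860 of 6720 knockout genes. In the knockout library Kcnq1ot1 passed 2-fold downward, as did 31.6% of genes. The collagen-rich cells held 2.74% of wild-type UMIs and 13.9% of the Malat1 UMIs, and in the knockout library 0.779% and 3.93%. All 31 and all 16 of them had a Malat1 UMI.

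Mitochondrial share gave a grouping that overlapped with low RP share. Among cells of at least 1000 UMIs with 5 to 20% mitochondrial UMIs, 13 wild-type cells were under 5% RP and 2 at 5 to 10%. Of such knockout cells, 98 were under 5% RP, 20 at 5 to 10% and 6 at 10 to 15%. The ratios below thus in part repeat those of cells under 5% RP. Over barcodes of at least 500 UMIs with no upper limit, those with at least 5% mitochondrial UMIs were 6.87-fold (6.52 to 7.23) and 5.23-fold higher (5.02 to 5.45) in Malat1. They were 11.8-fold (8.0 to 16.8) and 8.07-fold higher (6.41 to 10.1) in Neat1, and 2.77-fold (2.07 to 3.64) and 3.09-fold higher (2.80 to 3.40) in Kcnq1ot1. The wild-type Neat1 value rested on 32 UMIs, 15 of them in 1 barcode. All 3 RNAs passed 2-fold in both libraries, beside 18.6% of wild-type and 15.5% of knockout genes. Fibroblast markers moved with them, summing to 5574 against 1973 CPM (wild-type) and 2466 against 1029 CPM (knockout), and ES cell markers stood at 2491 against 4595 and 2710.0 against 4815 CPM. Collagen-rich barcodes were 3 of 45 and 9 of 213. Without them the ratios were 5.14 (4.81 to 5.50) and 4.66 (4.46 to 4.88) for Malat1, 11.9 and 6.27 for Neat1, and 2.53 and 3.11 for Kcnq1ot1. From under 1% through 1 to 2%, 2 to 5%, 5 to 10% and 10 to 20%, Kcnq1ot1 stood at 197, 419, 614, 1091 and 1074 CPM in wild-type barcodes and at 192, 449, 699.6, 1447 and 1532 CPM in knockout barcodes. Malat1 stood at 824, 1622, 2245, 6664 and 14509 CPM in the knockout library, and at 3117, 5116, 5275, 28428 and 21053 CPM in the wild-type library, where the last class held 7 cells. Neat1 had no UMI in those 7 cells and stood at 793 CPM in the 50 knockout cells of that class. The single wild-type barcode over 20% mitochondrial UMIs held 180 Malat1 and 4 Neat1 UMIs of 1234 in all.

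RP share and mitochondrial share moved together, so they were crossed among cells of at least 1000 UMIs. Among wild-type cells of 5 to 10% RP, Malat1 was at 8010.1, 5633 and 5091 CPM in cells with under 1%, 1 to 2% and 2 to 5% mitochondrial UMIs, while Kcnq1ot1 was at 349, 453 and 619.9 CPM. The same knockout cells were at 3602, 2407 and 2263 CPM for Malat1 and at 290, 517 and 699 CPM for Kcnq1ot1, the first values coming from 8 cells. In those 8 cells 1 barcode held 49 of the 87 Malat1 UMIs. Collagen-rich cells were 4 of 82, 15 of 507 and 0 of 314 of these wild-type cells. Without them Malat1 was at 6122, 4876 and 5091 CPM, so that the second class was no longer above the third, and in knockout cells, where 2 in the second class were left out, at 3602, 2207 and 2263 CPM. Neat1 was at 120, 73.9 and 42.8 CPM in the wild-type classes, and without collagen-rich cells at 96.9, 53.9 and 42.8 CPM. In the knockout classes it was at 41.4 (from 1 UMI), 45.8 and 49.5 CPM, within counting error of each other, and so did not show the wild-type order. At 10 to 15% RP both RNAs were higher with more mitochondrial RNA, Malat1 at 3277, 3827 and 4217 CPM and Kcnq1ot1 at 240.1, 354 and 567 CPM in wild-type cells. In knockout cells of that RP class Malat1 was at 1201, 1241 and 1503 CPM, the first 2 within counting error of each other, and Kcnq1ot1 at 304, 423 and 578 CPM. Under 5% RP, wild-type Malat1 had no order, at 48164 (1 cell), 35945 (3 cells), 31526 (12 cells) and, with 5 to 20% mitochondrial UMIs, 44792 CPM (13 cells). Knockout cells under 5% RP were at 7172 CPM for Malat1 with 2 to 5% (49 cells) and 9511 CPM with 5 to 20% (98 cells). Kcnq1ot1 was there at 1648 and 1584 CPM, within counting error of each other. From 5% RP upward, cells with 5 to 20% mitochondrial UMIs were few. At 5 to 10% RP, 20 such knockout cells were at 5213 CPM (4714 to 5750) for Malat1 and 1225 CPM for Kcnq1ot1, and 2 wild-type cells at 11734 and 546 CPM (the second from 4 UMIs), the highest Malat1 values of that RP class in each library. At 10 to 15% RP, 6 knockout cells were at 2552 CPM (1682 to 3713) and 851 CPM.

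Barcodes of 50 to 500 UMIs, too shallow to be counted as cells, carried all 3 members. Malat1 was 1.29-fold (1.24 to 1.34; 5891 against 4560.3 CPM) and 1.99-fold higher (1.91 to 2.08; 3608 against 1814 CPM) in them. Neat1 was 1.23-fold (0.829 to 1.76, from 31 UMIs) and 1.87-fold higher (1.4 to 2.45, from 60 UMIs). Kcnq1ot1 did not differ beyond counting error, at 0.995 (0.848 to 1.16) and 1.01 (0.897 to 1.12). No member passed 2-fold in either library, beside 5.18% of wild-type and 5.36% of knockout genes. Gm37376, a gene inside Malat1 on the opposite strand, held 4359 and 1772 UMIs in these barcodes, beside 2578 and 2412 of Malat1. For Malat1 the statement holds only with the 2 genes counted apart. Along depth, Malat1 counted apart from Gm37376 was highest among barcodes of 1000 to 2000 UMIs, at 12123 CPM (wild-type) and 6425 CPM (knockout). At 5000 to 10000 UMIs it was at 4178 and 1348 CPM. Gm37376 in the wild-type library was at 11748.5 CPM at 200 to 500 UMIs, where Malat1 was at 4669 CPM. At 1000 to 2000 UMIs Gm37376 was at 611 CPM, so with the 2 genes added the wild-type order changes. The wild-type Malat1 value at 1000 to 2000 UMIs rested on 2 of its 68 barcodes, which held 419 of 1112 Malat1 UMIs, 1 of them over the mitochondrial limit. Without these it was 7802 CPM (7232 to 8405). The class of 500 to 1000 UMIs was at 8011 CPM, and treated alike at 7641 CPM (7108 to 8204), within counting error of that value. Without the top barcode and those over the limit the knockout value was 5645 CPM, against 3813 CPM at 500 to 1000 UMIs. Kcnq1ot1 had its highest level at 1000 to 2000 UMIs, with 534 and 1116 CPM. Its wild-type level lay between 334 and 534 CPM over the 8 classes. The cells under 5% RP fall mostly in the classes of 500 to 2000 UMIs.

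**Figure D5:**
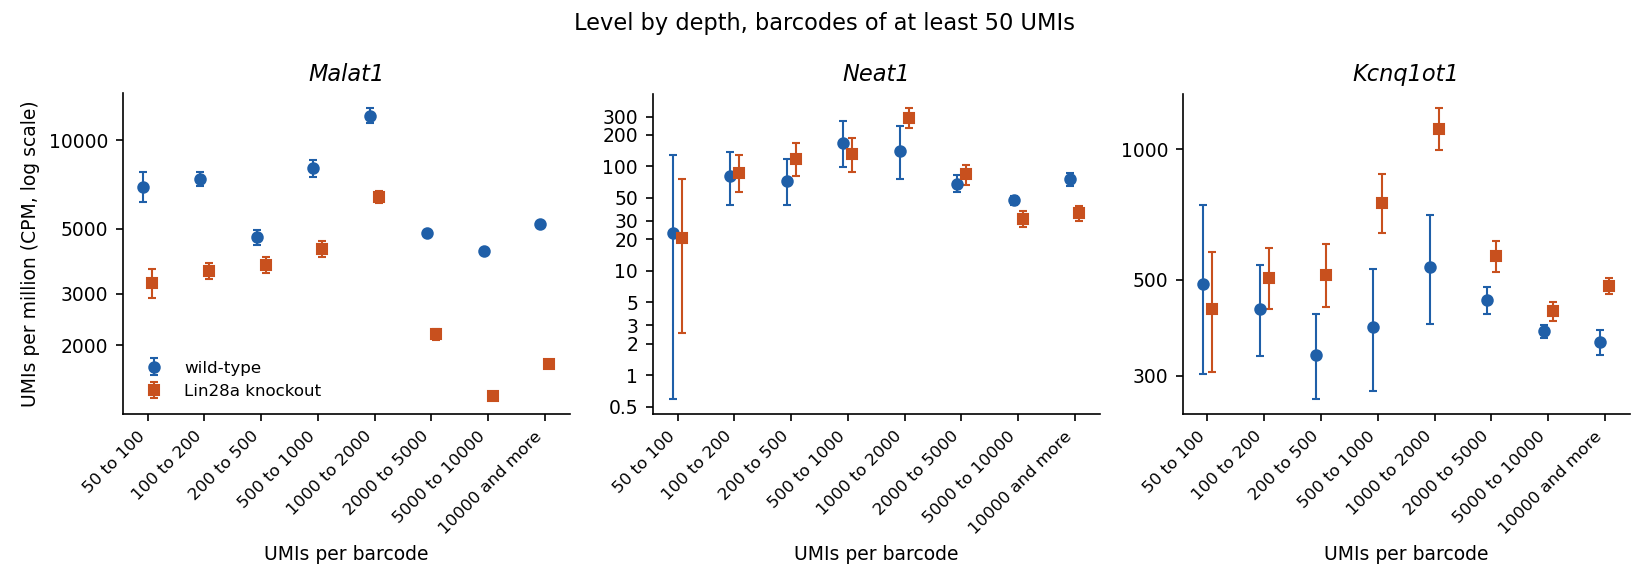
CPM (log scale) of Malat1, Neat1 and Kcnq1ot1 by UMIs per barcode for all barcodes of at least 50 UMIs in the wild-type (circles) and Lin28a knockout (squares) library, with 95% exact Poisson intervals. Counted apart from Gm37376, Malat1 is highest at 1000 to 2000 UMIs (12123 and 6425 CPM), in the wild-type library through 2 barcodes (7802 CPM without them). In the wild-type library Kcnq1ot1 stays between 334 and 534 CPM.

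Other genes with the pattern of each RNA were looked for over 20 strata of library, depth and RP share (9 wild-type, 11 knockout), by Pearson's r of log2(CPM + 1) among 6290 other genes. The strata share 2 libraries and were made from RP share, so r describes likeness only. Nearest to Malat1 were Rian, another imprinted nuclear RNA, and mt-Rnr1, the mitochondrial 12S ribosomal RNA (both 0.97), and the processed pseudogene Gm47628 (0.96). Nearest to Neat1 were Ccnt1, which encodes cyclin T1 (0.94), Ncor1, a nuclear corepressor (0.94), and the antisense RNA 9430065F17Rik (0.93). Nearest to Kcnq1ot1 were Ptk2, focal adhesion kinase (0.95), Noct (0.95) and Washc4 (0.95). Among themselves the members reached 0.81 (Malat1 with Neat1), 0.73 (Neat1 with Kcnq1ot1) and 0.64 (Malat1 with Kcnq1ot1). Many other genes were nearer, since Neat1 and Kcnq1ot1 had ranks 366 and 1041 for Malat1, Malat1 and Kcnq1ot1 ranks 191 and 404 for Neat1, and Neat1 and Malat1 ranks 392 and 701 for Kcnq1ot1. The median r over all genes lay between -0.08 and 0.06.

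Between the libraries, the lists around the members were compared by counts past 1.5-fold, which 6.49% of all genes passed upward and 8.45% downward. With so few genes a list, 1 or 2 calls are near these shares. Of 13 other nuclear long noncoding RNAs, none was higher and 3 were lower in the knockout library, Rian at 0.472 (0.434 to 0.512), Mirg at 0.580 (0.498 to 0.674) and Ftx at 0.530 (0.282 to 0.956). The list median was 1.05. Meg3, from the same imprinted domain as Rian and Mirg, was at 0.701 (0.676 to 0.728). Of 15 paraspeckle protein mRNAs only Matr3 passed, downward, at 0.570 (0.528 to 0.614). Of 18 nuclear speckle protein mRNAs, 2 passed downward, Pnn at 0.524 (0.486 to 0.564) and Prpf4b at 0.584 (0.525 to 0.648), and none upward. The medians of these 2 lists, 0.865 and 0.796, lay under the 1.01 of all genes. Of 20 cytoplasmic mRNAs, 2 passed upward and none downward (median 1.08). Of 14 fibroblast markers, 11 passed downward and none upward (median 0.359). Of 10 ES cell markers, 1 passed downward and none upward (median 1.01).

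Genes of the Kcnq1 imprinted domain, which Kcnq1ot1 silences on the paternal chromosome in some tissues, were mostly low. Kcnq1 itself had 1 UMI in each library. Of 8 genes with at least 50 UMIs, 2 were over 1.5-fold higher and 4 over 1.5-fold lower in the knockout library (median 0.80). Of genes with at least 200 UMIs, a stricter limit than that of the list, 6.49% and 8.45% were so. Phlda2, a brake on placental growth, was lowest at 0.0676 (0.0267 to 0.143) from 7 and 129 UMIs, followed by Slc22a18 at 0.292 (0.136 to 0.570) and Osbpl5 at 0.325 (0.157 to 0.624). The interval of Tnfrsf23, at 0.656 (0.362 to 1.16), included 1. Tspan32 at 1.83 (1.34 to 2.49) and Tssc4 at 1.56 (1.26 to 1.94) were the higher ones. Cdkn1c, a cell cycle inhibitor, had 7 and 28 UMIs, too few for the list. Values of the domain without collagen-rich cells are not given here, and those cells held 2.74% of wild-type and 0.779% of knockout UMIs. Whether the lower genes follow from this difference was not tested.

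Neighbouring genes were compared in the same way. Within 100 kb of Malat1, 10 genes had at least 50 UMIs, and 1 was over 1.5-fold lower in the knockout library (median ratio 1.14), beside 8.45% of genes with at least 200 UMIs. That gene was Gm37376, at 0.476 (0.455 to 0.497), which lies inside Malat1 on the opposite strand. Around Neat1, 2 of 10 were lower, Malat1 and Gm37376 themselves (median 1.07), and around Kcnq1ot1 no gene reached 50 UMIs. Whether the counting used strand is not stated, so UMIs of Gm37376 and Malat1 may be divided between the 2 in an unknown way. Added together they gave a ratio of 0.407 (0.401 to 0.414), against 0.398 for Malat1 alone. The genes that overlap Neat1 and Kcnq1ot1 held 3 and 2 UMIs in all.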

How the data were processed

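The authors deposited 1 table of raw counts (UMIs per gene and barcode) for each of 2 inDrop libraries, made with a published inDrop pipeline; the submitters' processing notes name mm10 and Seurat 2.3.4, and the aligner, the gene annotation and the use of strand are not given in the sources used here. The tables held every value as a whole number, with 12079546 and 10027710 UMIs. Names and coordinates came from GENCODE M21 (GRCm38), where 54079 of 54146 identifiers matched without their version. The members and gene lists were chosen with earlier results of these data known. Cells were kept by the limits of the methods (at least 500 UMIs, at most 20% on 37 mitochondrial genes), and RP share used 87 genes, pseudogenes left out. UMIs were summed per library and class and given as CPM with exact Poisson intervals; ratios have exact conditional binomial (Clopper-Pearson) intervals at 95% and shares exact binomial ones, all for counting error only. Across genes, those with at least 200 UMIs (50 in lists) were compared, with 0.5 added to each count. Thinned shares came from the hypergeometric distribution. Genes named were the members, list genes, the 3 nearest in pattern to each member, and genes overlapping or within 100 kb of one; Retreg3 was named because a sequence search ended on 3 genes. Doublets, called with Scrublet in scanpy 1.11.5 (25 wild-type cells, 1.35%; 15 knockout cells, 0.925%), were kept. The ratio and its interval were checked on counts simulated with counting error alone, so the check does not cover the spread between cells or cultures. Alternatives were another scaling, other limits on depth, RP and mitochondrial share, doublets, collagen-rich cells and single barcodes. Scripts ran under Python 3.11.15 with anndata 0.12.19, pandas 2.3.3, scipy 1.17.1, matplotlib 3.10.9 and numpy 2.4.6.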

Additional observations from a re-analysis of the deposited data

Results flagged for a closer look

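A gene outside the main measurement carried a signal at the Malat1 locus. Gm37376 is annotated on the plus strand at chr19:5801941-5802393 of GRCm38, inside Malat1, and it held 7222 UMIs in wild-type and 2759 UMIs in knockout cells, 620 and 295 CPM, a ratio of 0.476 (0.455 to 0.497). It did not keep 1 ratio to Malat1. Per 100 Malat1 UMIs there were 13.6 and 16.3 in cells, 3.30 and 3.01 in collagen-rich cells, 32.7 and 33.1 in cells of at least 15% RP, and 169 and 73.5 in barcodes of 50 to 500 UMIs. In those shallow barcodes Gm37376 was at 9960.0 and 2651 CPM, 16.1 and 8.98 times its level in cells, where Malat1 was at 1.29 and 1.99 times its own. Whether its UMIs are antisense molecules or Malat1 molecules counted there was not tested, since the counts carry neither positions nor strand.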

How the results depend on the processing

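No paired analysis was possible because each genotype had 1 library. Of 84 alternative values for the 9 ratios, all 84 stayed on the same side of 1, read without their intervals. Of them, 39 moved beyond the counting interval of the reported value. For Malat1, knockout over wild-type, they were 0.384 with median-of-ratios scaling, 0.388 with at least 1000 UMIs, 0.422 over all barcodes of at least 50 UMIs, 0.382 with a mitochondrial limit of 10%, 0.435 without collagen-rich cells, 0.356 without cells under 5% RP and 0.323 in cells of 5000 to 10000 UMIs. For Neat1 they were 0.952 without collagen-rich cells, and without cells under 5% RP and in cells of 5000 to 10000 UMIs, in that order, 0.690 and 0.666 for Neat1 and 1.18 and 1.11 for Kcnq1ot1. The Neat1 interval included 1 without collagen-rich cells (0.834 to 1.09). It also included 1 in cells of 5 to 15% RP with at least 5000 UMIs and under 0.1% collagen, at 0.867 (0.718 to 1.04). For cells under 5% RP over the others, wild-type before knockout, Malat1 gave 5.89 and 5.43 without RP and mitochondrial UMIs in the total, 6.82 and 9.02 with an RP limit of 2.5%, 2.11 and 2.83 with one of 10%, 3.13 and 4.41 over all barcodes of at least 50 UMIs, and 5.04 and 5.29 without collagen-rich cells, besides 9.70 in wild-type cells of 1000 to 5000 UMIs. Neat1 gave 2.14 and 2.78 with the limit of 10%, 5.58 over all barcodes and 8.34 without collagen-rich cells in the wild-type library, and 15.9 with the limit of 2.5% and 6.95 at 1000 to 5000 UMIs in the knockout library. Kcnq1ot1 gave 1.55 and 2.63 over all barcodes, 2.68 with the limit of 2.5% (wild-type) and 2.26 with that of 10% (knockout). Alternatives chosen after seeing the data gave, for Malat1, 0.423 between libraries in cells of 5 to 15% RP with at least 5000 UMIs and under 0.1% collagen, 6.76 and 6.35 with RP pseudogenes in the share, and 5.58 and 5.42 without the barcode under 5% RP that held most Malat1 UMIs, and for Kcnq1ot1 1.38 between libraries over strata weighted by wild-type UMIs. Leaving collagen-rich cells out of the division by Malat1 share and of the comparisons by mitochondrial share, and leaving single barcodes out of the depth classes, were also chosen after seeing the data, and all 16 ratios of the division kept their interval above 1. Among the ratios of cells under 5% RP, counts limit wild-type Neat1 most, with 58 UMIs there, beside 78 for wild-type Kcnq1ot1 and 118 for knockout Neat1. With 1 library per genotype no value here measures the spread between cultures.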
